A study of Homo sapiens with 6 samples.

Results

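The mRNA levels and LARP1 binding of 50 genes of the ATF4 program were examined in HEK293T cells under growing and mTOR-inactive conditions. The genes are ATF4 itself, regulators and effectors of the stress response around it, enzymes of amino acid synthesis, amino acid transporters, the tRNA exporter XPOT, and the cytoplasmic aminoacyl-tRNA synthetases. They were chosen by gene name from knowledge of the pathway and make up 50 of the 19351 gene names in the deposited mRNA-seq table, where they have 98 RefSeq transcripts. HEK293T is a human embryonic kidney line that carries the SV40 large T antigen. In the mTOR-inactive condition the cells received the mTOR kinase inhibitor PP242 at 2.5 µM for a time not given in the sources used here, and growing cells received none. The mRNA-seq data hold 2 libraries per condition, described by the submitters as biological duplicates, made without 4-thiouridine. LARP1 binding was measured by PAR-CLIP of the endogenous protein in 1 library per condition, after 100 µM 4-thiouridine for 14 hr in both conditions and ultraviolet light at 150 mJ/cm2.

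ATF4 is a transcription factor whose mRNA is translated more efficiently when the initiation factor eIF2 is phosphorylated, because short upstream reading frames in its 5’UTR then let more ribosomes reach the coding sequence. Its protein binds composite elements shared with C/EBP factors and raises transcription of genes for amino acid synthesis, amino acid uptake and tRNA charging, as well as of stress effectors such as DDIT3 and CHAC1. mTORC1 activity is also known to raise ATF4 protein output. The mRNA levels measured here report neither ATF4 protein nor translation.

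The 4 mRNA-seq libraries were close in depth, with growing replicate 2 and mTOR-inactive replicates 1 and 2 at 1.06, 1.04 and 1.06 times the depth of growing replicate 1, as judged from the steps of low values, and each listed between 36046 and 36149 transcripts above 0. The absolute number of reads is not known. Of genes used as markers of this line, VIM measured 212 and 210 RPKM (reads scaled by transcript length and by library size) in growing and 238 and 239 RPKM in mTOR-inactive libraries, and rose past the adjusted p threshold of 0.05 (log2 change 0.17, limma adjusted p = 0.00704). KRT18 lay between 18.6 and 20.1 RPKM, NEFM between 15.7 and 18.2 and KRT8 between 2.87 and 3.19, while PAX2 stayed between 0.116 and 0.136. Markers of liver, endothelium and blood cells (ALB, CDH5, PTPRC) reached at most 0.0402 RPKM. In such bulk RNA, fewer cells that express a gene and less RNA per cell cannot be told apart.

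After PP242 the stress regulators were higher or lower depending on the gene, and the synthesis, uptake and charging genes differed little between conditions. Of the 50 genes, 49 passed the filter of a mean of 1 RPKM and were tested at their most abundant transcript, and VLDLR, a lipoprotein receptor, was too low (0.452 and 0.532 RPKM in growing, 0.492 and 0.502 in mTOR-inactive libraries). By limma on log2(RPKM + 1), with Benjamini-Hochberg adjustment over 21014 transcripts, 4 genes rose (ATF4, DDIT3, STC2 and QARS), 5 fell (CEBPB, CHAC1, DDIT4, SESN2 and SLC1A5) and 40 did not pass the adjusted threshold of 0.05. The 4 that rose are 8.16% of the 49, against 3.86% of all 11390 genes tested, and the 5 that fell are 10.2%, against 8.55%. The libraries of the conditions did not overlap for 28 of the 49 genes (57.1%), against 59.4% of all genes. The median log2 change of the 49 genes lay near 0 (0.0003), as did that of all genes tested (-0.0052), and the median absolute change was 0.0373 against 0.0613. Of the 9 stress regulators tested 7 passed, and of the 40 other genes 2 passed.

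**Figure D1:**
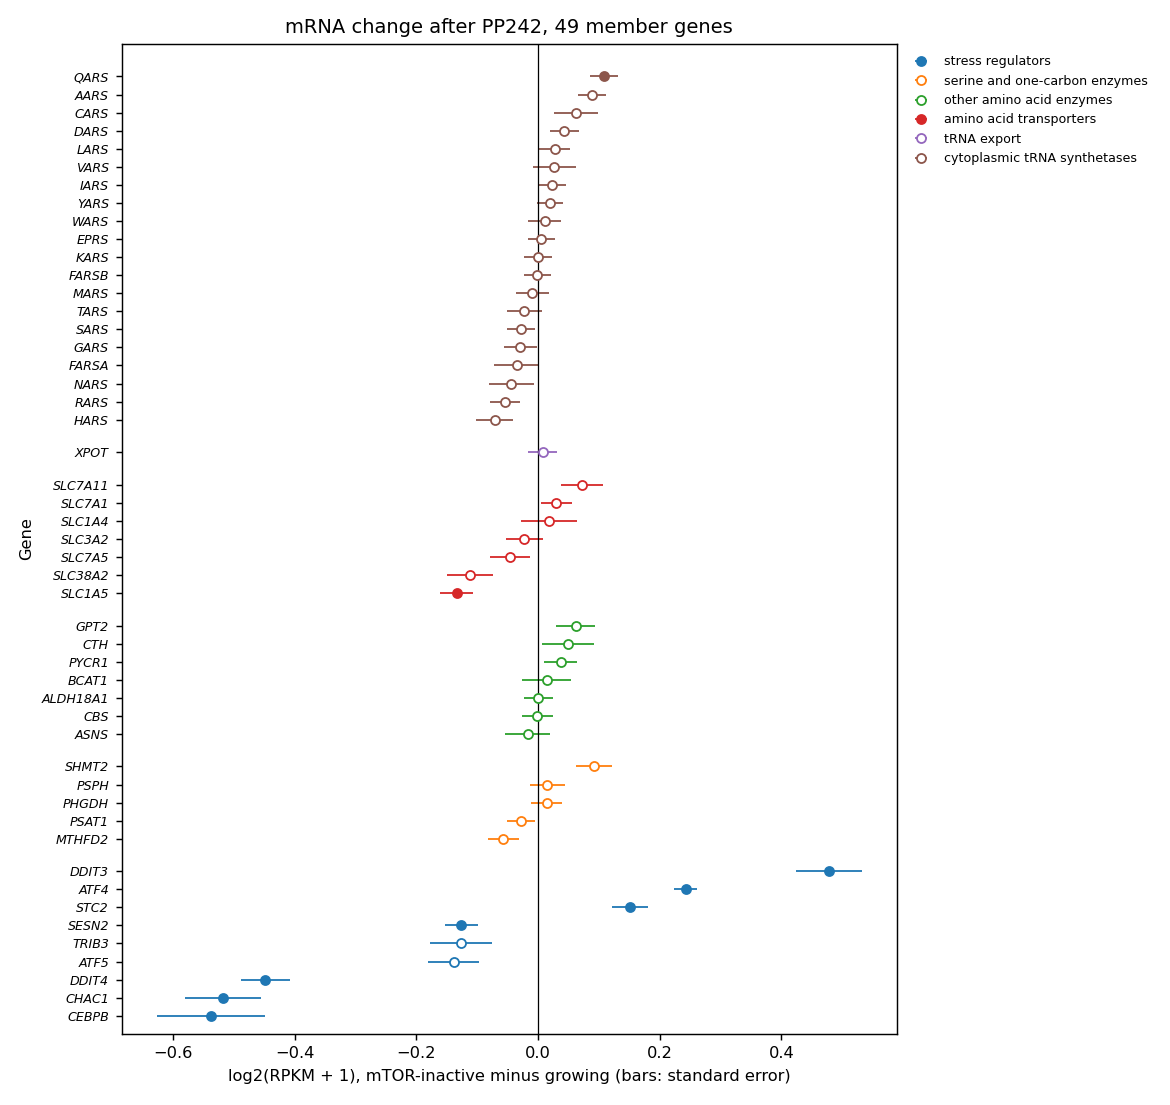
Change in mRNA level of the 49 tested genes, as the difference in log2(RPKM + 1) between mTOR-inactive and growing libraries (x axis, bars show the standard error, 2 libraries per condition), grouped by role on the y axis. Filled points passed the adjusted threshold and open points did not. The regulators spread from -0.54 to 0.48, whereas all other genes lie between -0.13 and 0.11.

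Among the regulators, ATF4 had by far the highest level. ATF4 (NM_182810.1, GRCh37 chr22:39915700-39918688, plus strand) measured 211 and 210 RPKM in the growing libraries and 249 and 249 RPKM in the mTOR-inactive ones. Both mTOR-inactive libraries were above both growing ones, by more than the spread within either condition. The rise was 1.18-fold in mean RPKM (log2 change 0.24, SE 0.019, limma adjusted p = 0.00248), and the other listed ATF4 transcript, NM_001675.2, rose to the same degree (0.23). Reads that match several isoforms of a gene had been divided evenly among them. Agreement between isoforms is therefore not separate evidence for a change, here or in the genes below. Summed over both transcripts ATF4 reached 350 ± 0.647 RPKM (SD, n = 2) in growing cells, while the next regulator in order, DDIT4, reached 29.2 ± 1.65.

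**Figure D2:**
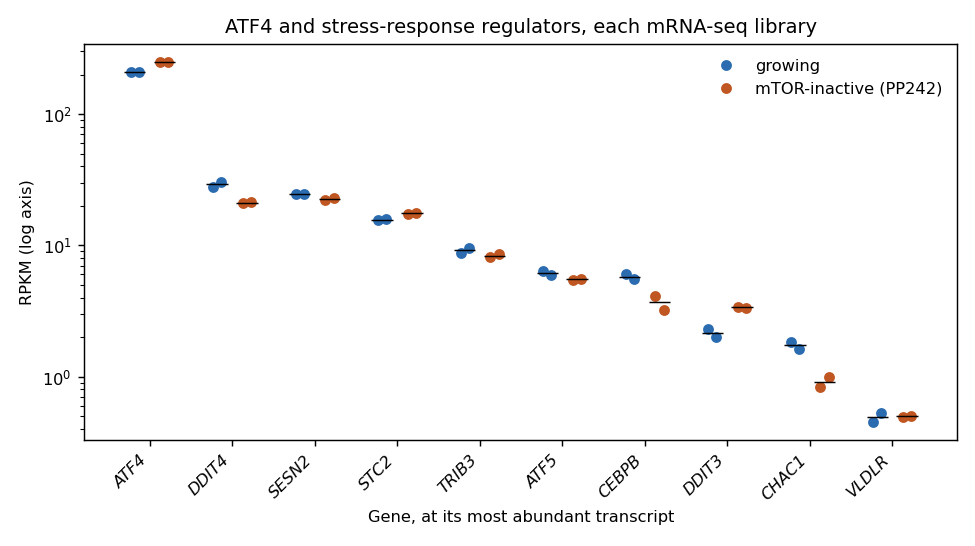
RPKM of the 10 stress regulators at their most abundant transcript (y axis, logarithmic), with each mRNA-seq library as a point and the mean of the 2 libraries of a condition as a line. ATF4, DDIT3 and STC2 are higher in both mTOR-inactive libraries, and CEBPB, CHAC1, DDIT4 and SESN2 are lower in both; VLDLR lies near 0.5 RPKM and was not tested.

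DDIT3 encodes CHOP, a C/EBP-family factor that ATF4 induces and that promotes cell death under lasting stress. DDIT3 (NM_004083.5, chr12:57910371-57915520, minus strand) rose from 2.30 and 1.99 RPKM to 3.40 and 3.35 RPKM. The lower mTOR-inactive library lay well above the higher growing one, and the change was 1.57-fold (log2 change 0.48, SE 0.054, limma adjusted p = 0.00652). All 4 listed DDIT3 transcripts, among which shared reads had been divided, rose by 0.29 to 0.48 on the log2 scale. The 3’ end of DDIT3 overlaps the annotated end of MARS on the opposite strand over 982 bases. The libraries kept the strand, but whether the counting used it is not stated. MARS measured 85.2 and 81.9 RPKM in growing and 83.7 and 82.3 RPKM in mTOR-inactive libraries over its whole transcript. Whether its reads add to the level of DDIT3 was not tested.

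STC2, a secreted glycoprotein hormone induced by stress (NM_003714.2, chr5:172741726-172755450, minus strand), measured 15.5 and 15.8 RPKM under growing and 17.2 and 17.8 RPKM under mTOR-inactive conditions. The conditions did not overlap, and the rise was small (log2 change 0.15, SE 0.030, limma adjusted p = 0.0323). It did not pass when any 1 of the 4 libraries was left out (adjusted p between 0.0642 and 0.125). With 1 library in a condition, that library is assumed to vary like the others.

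The regulators that fell include the largest changes of the whole set. CEBPB, a C/EBP factor that can dimerize with ATF4 (NM_005194.3, chr20:48807367-48809205, plus strand), had 6.01 and 5.52 RPKM in growing and 4.10 and 3.24 RPKM in mTOR-inactive libraries. The values did not overlap, though the mTOR-inactive pair was spread widely, and the mean fell to 0.638 times its growing level (log2 change -0.54, SE 0.089, limma adjusted p = 0.0201). Without growing replicate 1 it did not pass (log2 change -0.49, adjusted p = 0.0781). CHAC1, which degrades glutathione (NM_024111.3, chr15:41245160-41248710, plus strand), went from 1.85 and 1.62 RPKM to 0.826 and 0.990 RPKM. Both mTOR-inactive libraries were under both growing ones, and the mean fell to 0.525 times its growing level (log2 change -0.52, SE 0.063, limma adjusted p = 0.00805), in a gene close to the filter of 1 RPKM. The other listed CHAC1 transcript fell by 0.46 on the log2 scale and also passed, but shared reads had been divided between the transcripts.

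DDIT4 and SESN2 encode REDD1 and Sestrin 2, which act upstream of mTORC1 as inhibitors. DDIT4 (NM_019058.2, chr10:74033678-74035794, plus strand) measured 28.0 and 30.4 RPKM in growing and 21.0 and 21.3 RPKM in mTOR-inactive libraries. The gap between the conditions was several times the spread within them (log2 change -0.45, SE 0.041, limma adjusted p = 0.00365). SESN2 (NM_031459.4, chr1:28586029-28609002, plus strand) measured 24.6 and 24.7 RPKM against 22.2 and 22.9 RPKM. The fall was small (log2 change -0.13, SE 0.027, limma adjusted p = 0.0427) and did not pass with any 1 library left out (adjusted p between 0.0818 and 0.163).

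ATF5 and TRIB3, named here after their values were seen, were the regulators that were tested and did not pass. ATF5, a factor under the same kind of translational control as ATF4, measured 6.40 and 5.94 RPKM in growing and 5.45 and 5.57 RPKM in mTOR-inactive libraries. TRIB3, a pseudokinase that binds ATF4 and AKT, measured 8.73 and 9.62 RPKM against 8.08 and 8.55 RPKM. In both genes the mTOR-inactive libraries lay under the growing ones without overlap, with limma adjusted p = 0.0939 for ATF5 and 0.174 for TRIB3. Of all genes tested, 59.4% did not overlap in either direction. ATF5 passed when its transcripts were summed to 1 value per gene (log2 change -0.16, adjusted p = 0.0464). All 9 tested regulators had an unadjusted p under 0.05, as did 31.8% of all genes tested.

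The enzymes of serine synthesis and of the mitochondrial one-carbon cycle are among the classical ATF4 targets, and none of the 5 passed the test, with log2 changes between -0.06 and 0.09. Of all genes tested, 3.86% were higher and 8.55% lower. PHGDH, the first enzyme of serine synthesis, was the most abundant, at 138 and 133 RPKM in growing and 137 and 136 RPKM in mTOR-inactive libraries. SHMT2, which splits serine to glycine in mitochondria, had the largest difference (NM_005412.5, 9.43 and 9.62 RPKM against 10.3 and 10.2 RPKM), with a limma adjusted p = 0.112. MTHFD2, the next step of the mitochondrial folate cycle, measured 44.7 and 45.8 RPKM against 43.2 and 43.6 RPKM (log2 change -0.06, adjusted p = 0.208). PSAT1, the transaminase of serine synthesis, measured 55.0 and 54.8 RPKM against 54.2 and 53.4 RPKM (log2 change -0.03). For SHMT2, MTHFD2 and PSAT1 the conditions did not overlap, as for 59.4% of all genes tested. SHMT2 was the 1 enzyme with an unadjusted limma p under 0.05 (20.0% of the 5, against 31.8% of all genes tested). The 95% intervals of the log2 changes of all 5 enzymes stayed between -0.119 and 0.164.

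None of the 7 other enzymes passed in limma either, against 3.86% of all genes tested higher and 8.55% lower. Of the 7 enzymes 0 had an unadjusted p under 0.05, against 31.8% of all genes tested. ASNS, the asparagine synthetase and a standard readout of ATF4, is outside the rule for named genes and is given because of that role. Its most abundant transcript (NM_001673.4) measured 11.7 and 12.0 RPKM in growing and 12.1 and 11.4 RPKM in mTOR-inactive libraries, so that the conditions overlapped (log2 change -0.02, 95% interval -0.108 to 0.0734). The largest differences were those of GPT2, which makes alanine (7.89 and 7.98 RPKM against 8.18 and 8.47 RPKM, log2 change 0.06), and of CTH, which makes cysteine (3.07 and 3.24 RPKM against 3.40 and 3.20 RPKM, 0.05). PYCR1, which makes proline, followed at 37.0 and 35.9 RPKM against 37.4 and 37.5 RPKM (0.04). The 95% intervals of the 7 enzymes lay between -0.108 and 0.154.

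Of the 7 amino acid transporters, 1 fell (14.3%), against 8.55% of all genes tested. SLC1A5, the exchanger that takes up glutamine (NM_005628.2, chr19:47278140-47291851, minus strand), measured 50.4 and 49.1 RPKM in growing and 45.8 and 44.7 RPKM in mTOR-inactive libraries. The conditions did not overlap (log2 change -0.13, SE 0.027, limma adjusted p = 0.0348). All 3 listed SLC1A5 transcripts, among which shared reads had been divided, fell by 0.13 to 0.16. The call did not hold with any 1 library left out (adjusted p between 0.0681 and 0.13). SLC38A2, the sodium-coupled neutral transporter SNAT2, measured 36.5 and 38.2 RPKM against 33.5 and 35.5 RPKM and did not pass (log2 change -0.11, adjusted p = 0.125). SLC7A11, the cystine importer, measured 5.55 and 5.35 RPKM against 5.72 and 5.84 RPKM (0.07). The remaining SLC7A5, SLC3A2, SLC7A1 and SLC1A4 differed by at most 0.05 in either direction. SLC7A5 has near-identical pseudogene copies, between which reads may have been divided. XPOT, which carries tRNA out of the nucleus, measured 62.9 and 63.8 RPKM against 63.1 and 64.3 RPKM, with overlapping conditions (log2 change 0.01).

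The 20 genes for cytoplasmic aminoacyl-tRNA synthetases, the enzymes that attach amino acids to their tRNAs, stayed close to 0. Their log2 changes lay between -0.07 and 0.11 with a median of 0.0024. QARS, the glutaminyl enzyme (NM_005051.1, chr3:49133365-49142563, minus strand), was the single synthetase that passed (5.0% of the 20, against 3.86% of all genes higher). It measured 59.3 and 60.1 RPKM in growing and 64.2 and 64.7 RPKM in mTOR-inactive libraries, without overlap (log2 change 0.11, SE 0.023, limma adjusted p = 0.0402), and did not pass with any 1 library left out (adjusted p between 0.0957 and 0.144). AARS, the alanyl enzyme, had 57.5 and 57.7 RPKM against 61.8 and 60.8 RPKM and stayed short of the threshold (log2 change 0.09, adjusted p = 0.0699). HARS, the histidyl enzyme, measured 10.6 and 10.9 RPKM against 10.2 and 10.2 RPKM (log2 change -0.07). For the 19 synthetases that did not pass, the 95% intervals lay between -0.146 and 0.152.

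The levels of the synthetases differed far more from each other than between conditions. Reads that matched several transcripts had been divided among them, so levels are compared as RPKM summed over the listed transcripts of a gene. In growing cells IARS was highest, at 139 ± 2.00 RPKM (SD, n = 2), above YARS at 99.7 ± 0.395, FARSA at 98.4 ± 5.03, KARS at 95.6 ± 0.443 and SARS at 94.3 ± 0.105. The spread of FARSA covers YARS, KARS and SARS, so its place among them is not resolved, whereas YARS lay above KARS and SARS in both libraries. At the lower end stood HARS at 39.6 ± 0.789, VARS at 37.5 ± 1.77 and CARS at 19.5 ± 0.593, where the means of HARS and VARS differed by less than 2 SD of VARS. The alpha and beta subunits of the phenylalanyl enzyme, which pair in equal numbers, were listed at different mRNA levels, FARSA at 98.4 and FARSB at 59.9 ± 0.189. Among the enzymes and transporters the highest summed levels in growing cells were those of PHGDH (135 ± 3.56), SLC1A5 (107 ± 1.89), PSAT1 (104 ± 0.0927) and CBS (99.3 ± 0.141). These genes were picked for their place in the order after the values were seen.

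**Figure D3:**
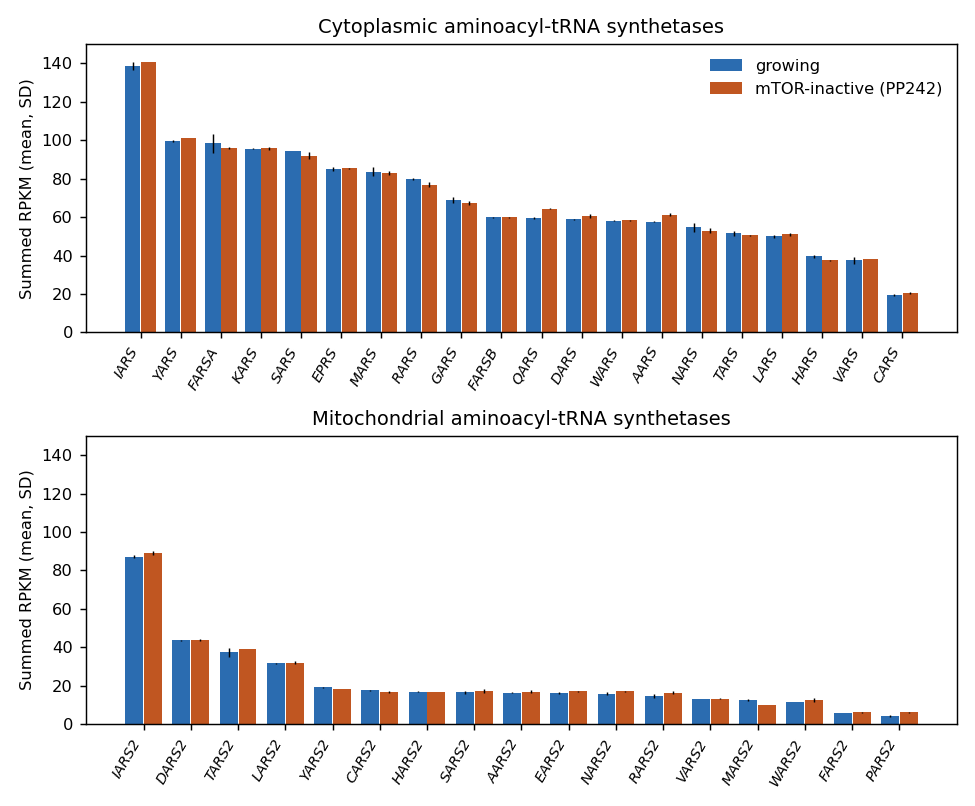
RPKM summed over the listed transcripts of each gene (y axis, from 0), for 20 cytoplasmic (upper panel) and 17 mitochondrial (lower panel) synthetase genes, as the mean of 2 libraries with the SD as a bar. Growing and mTOR-inactive bars are nearly level for each cytoplasmic gene; IARS reaches 139 RPKM and CARS 19.5, and the mitochondrial genes run from 87.2 (IARS2) to 4.43 (PARS2).

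Genes of the same pathways outside the set were read from lists made by role. Of 64 further genes, 58 were tested, 4 rose, 4 fell and 50 did not pass, which is 6.9% in each direction against the 3.86% higher and 8.55% lower of all genes. The largest rise was that of PPP1R15A (GADD34), the stress-induced subunit that directs a phosphatase to eIF2 (NM_014330.3, 13.7 and 12.6 RPKM in growing against 21.0 and 20.4 RPKM in mTOR-inactive libraries, log2 change 0.62, SE 0.044, limma adjusted p = 0.00177). PPP1R15B, the constitutive counterpart of the same phosphatase, fell from 22.3 and 22.8 RPKM to 18.3 and 19.8 RPKM (-0.23, adjusted p = 0.0227). Neither gene overlapped between the conditions, and the other 5 genes of this list, the 4 eIF2 kinases and the alpha subunit EIF2S1, did not pass. The shares of this list are 14.3% in each direction, against the same 3.86% and 8.55% of all genes, and 59.4% of all genes did not overlap.

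Among 12 further genes of the integrated stress response, 8 were tested, 2 rose (25.0%) and 1 fell (12.5%), against 3.86% and 8.55% of all genes tested. CEBPG, another C/EBP partner of ATF4, fell from 9.48 and 9.76 RPKM to 7.63 and 7.69 RPKM (log2 change -0.29, limma adjusted p = 0.00547). ATF3, a factor of the same family induced by stress, rose from 2.75 and 2.57 RPKM to 3.53 and 3.28 RPKM (0.27, adjusted p = 0.0232). GADD45A, a stress-induced growth arrest gene, rose from 8.17 and 8.08 RPKM to 9.34 and 9.42 RPKM (0.19, adjusted p = 0.0178). In all 3 the conditions did not overlap, as in 59.4% of all genes tested.

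Of the 17 mitochondrial synthetases 1 rose and 1 fell (5.88% each), shares close to the 3.86% and 8.55% of all genes. PARS2, the prolyl enzyme, rose from 4.74 and 4.11 RPKM to 5.90 and 6.40 RPKM (log2 change 0.40, limma adjusted p = 0.0188). MARS2, the methionyl enzyme, fell from 13.1 and 12.4 RPKM to 10.2 and 10.0 RPKM (-0.30, adjusted p = 0.00768). Of the 3 scaffold proteins of the multi-synthetase complex, 1 fell (33.3%, against 8.55% of all genes). EEF1E1 went from 42.3 and 42.0 RPKM to 37.7 and 39.2 RPKM (-0.13, limma adjusted p = 0.0437). None of the 11 further amino acid enzymes and none of the 12 further transporters passed at the adjusted threshold by limma. In each of these lists 1 gene had an unadjusted p under 0.05 (9.09% and 8.33%, against 31.8% of all genes tested). The calls of GADD45A and EEF1E1 did not hold with any 1 library left out (adjusted p between 0.0618 and 0.071 and between 0.0563 and 0.156). Those of ATF3 and PPP1R15B did not hold without growing replicate 1, growing replicate 2 or mTOR-inactive replicate 1 (adjusted p of 0.0522, 0.0849 and 0.0762 for ATF3 and of 0.0665, 0.0798 and 0.0528 for PPP1R15B). That of PARS2 did not hold without mTOR-inactive replicate 2 (adjusted p = 0.0517).

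**Figure D4:**
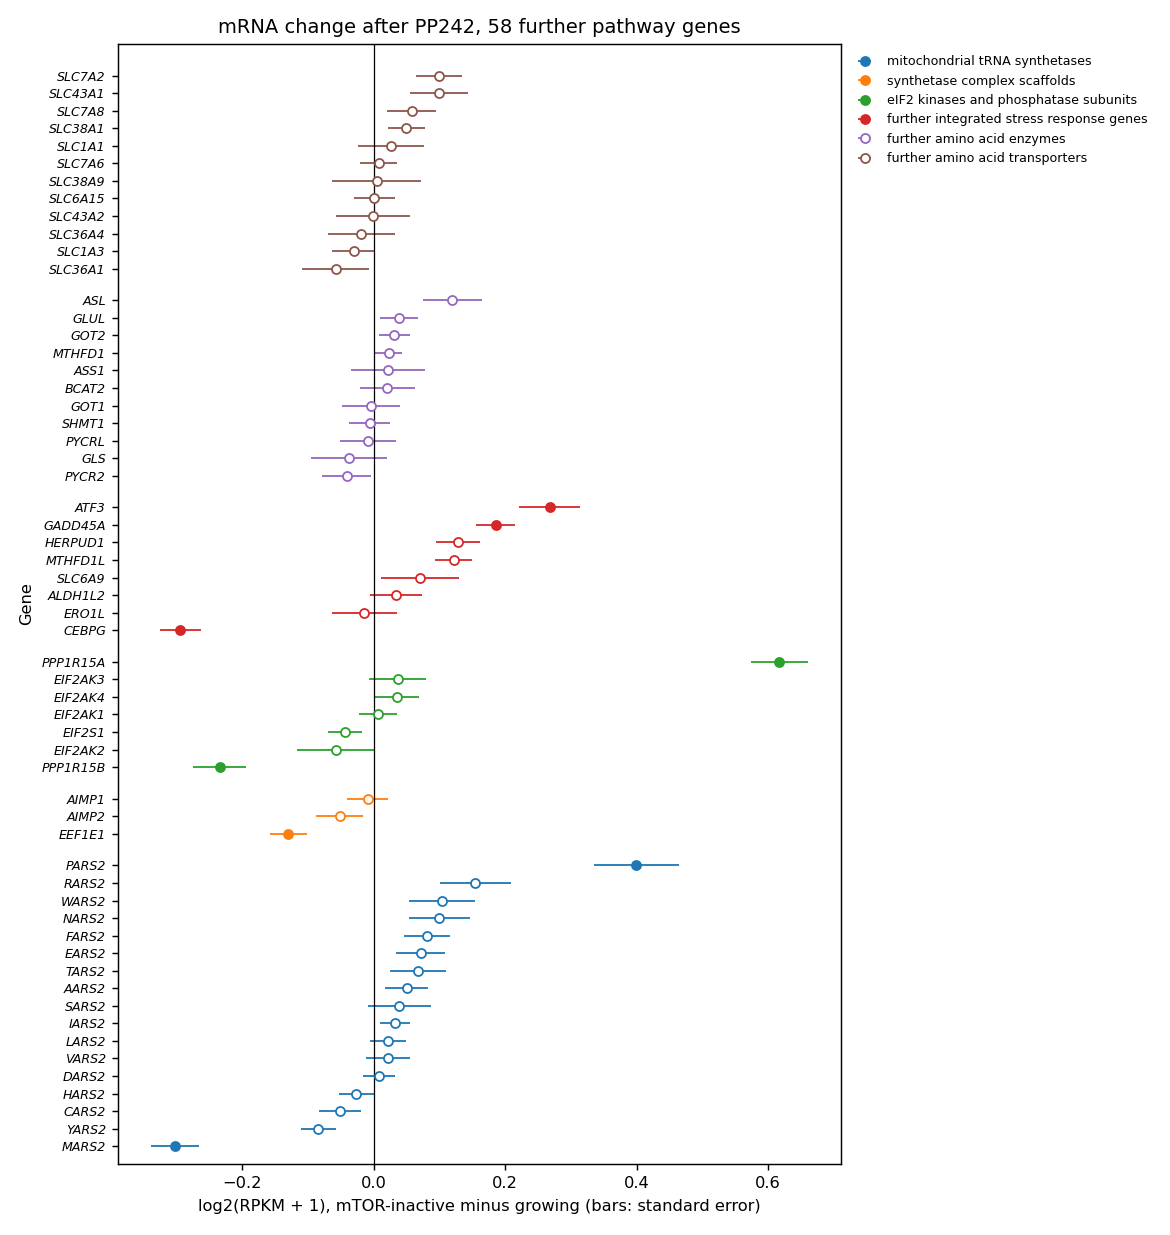
Change in mRNA level of the 58 tested genes of the same pathways outside the set, as the difference in log2(RPKM + 1) between mTOR-inactive and growing libraries (x axis, bars show the standard error, 2 libraries per condition). Filled points passed the adjusted threshold; they run from MARS2 at -0.30 to PPP1R15A at 0.62, and the open points lie between -0.08 and 0.15.

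Matches to a core of the C/EBP-ATF element were looked up in RefSeq promoter windows, from 250 bases before to 50 bases after each annotated start (GRCh38.p14). The genes were chosen as parts of the ATF4 pathway, so a higher share of matches than in all genes may follow from that choice. The letters searched were TGATGNAA and, for the other strand, TTNCATCA. A match was present in 14 of the 41 genes that had a window (34.1%), against 4.46% of all 27305 genes with a window and 2.34% of the 8948 such genes tested in mRNA-seq. Because some genes have several windows, the share per window was 21.5% of 65 windows, against 3.62% of all 35116. By role, matches were found for 7 of 16 synthetases, 4 of 6 transporters, 2 of 5 enzymes outside serine synthesis and 1 of 10 stress regulators, and for none of the 3 serine and one-carbon enzymes or XPOT. PSPH, SHMT2, PYCR1, GPT2, SLC7A11, DARS, LARS, VARS and YARS have no window in the table.

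The surroundings of 8 matches are printed 5’ to 3’ on the strand of the gene, with the matching letters in capitals, first the genes whose mRNA fell (CHAC1 and SLC1A5) and then genes whose mRNA did not pass the test. They stand at chr15:40953253-40953278 (plus strand) for CHAC1, chr19:46784895-46784920 (minus) for SLC1A5, chr7:97872460-97872485 (minus) for ASNS, chr12:24949133-24949158 (minus) for BCAT1, chr16:70289677-70289702 (minus) for AARS, chr9:92293694-92293719 (minus) for IARS, chr12:57488055-57488080 (plus) for MARS and chr11:3057409-3057434 (minus) for CARS.
CHAC1: cccctgccgTTGCATCActcctgcca
SLC1A5: ggaagtggcTGATGCAAgctgtccag
ASNS: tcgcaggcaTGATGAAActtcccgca
BCAT1: tcttcctgcTGATGCAAtccgctagg
AARS: ttctcgcagTTGCATCAgccaagtta
IARS: ttcagcgcgTTGCATCAcctccgtgc
MARS: cggttccggTTGCATCAgcgagggat
CARS: gggcggcggTTGCATCAgattctagg

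The matches of CHAC1, AARS, SLC1A5, ASNS and BCAT1 begin 209, 187, 97, 68 and 48 bases before the annotated start. Those of IARS, MARS and CARS begin 13, 4 and 2 bases before it. Of the matches not printed, those of GARS and SLC1A4 begin before the start and those of SLC7A1, SLC3A2, NARS and TARS after it. Of the 9 genes that passed the mRNA test, CHAC1 and SLC1A5 hold a match, as do 34.1% of the genes of the set with a window. Both fell, but 2 genes are too few to relate a match to the direction of change. ATF4, DDIT3, STC2, QARS, CEBPB, DDIT4 and SESN2 hold none in these windows. A match of letters is a description of the sequence and does not show that a factor binds there.

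LARP1 binds RNA, and its sites on the mRNAs of ribosomal proteins are the subject of the study. On the ATF4 program the lists held 2 sites in growing and 9 in mTOR-inactive cells. The share of its genes with a site was 4.0% in growing cells, under the 10.2% of genes tested in mRNA-seq. In mTOR-inactive cells it was 16.0%, above the 11.2% of genes tested. Nearly all of the signal was on MTHFD2 and YARS under mTOR-inactive conditions. A site is a cluster of reads with at least 1 T-to-C conversion, and a cluster listed for several isoforms of a gene was counted once. The strength of a site is given in RPM, described by the authors as reads scaled by library size. How values as low as 0.0002 RPM in the growing list arise from read counts is not stated. With 1 library per condition no difference between the conditions has a replicate check, and the depth of the libraries is not known.

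Under growing conditions 2 of the 50 genes (4.0%) carried a listed site, against 10.2% of the genes tested in mRNA-seq. These were a 3’UTR site of PYCR1 with 0.0702 RPM and a 3’UTR site of ALDH18A1 with 0.0194 RPM. Neither reached 1 RPM, a level reached by 1.78% of genes. The T-to-C score of the PYCR1 site was 44.3% of the usual multiple of RPM in that library, and the length and RPM of the ALDH18A1 site recur on other genes, 3 genes in all.

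Under mTOR-inactive conditions 8 of the 50 genes (16.0%) carried a site, against 11.2% of genes. At 1 RPM the share equalled that of all genes, with MTHFD2 and YARS making up 4.0%, against 4.0%. Among the genes with a mean of at least 10 RPKM it was 2 of 37 (5.41%), against 7.07%. MTHFD2 carried 2 sites in its 3’UTR (NM_006636.3), one of 701 RPM at nucleotides 1834 to 1855 and one of 373 RPM at nucleotides 2134 to 2157. YARS, the tyrosyl enzyme, carried 1 site of 32.1 RPM in its 3’UTR (NM_003680.3, nucleotides 3069 to 3085). All 3 sites had a T-to-C score of 100% of the usual multiple, as most listed sites do, so the score does not set them apart. No other gene listed a site of the same length and RPM. By summed RPM, MTHFD2 ranked 91 and YARS 342 among the 1620 mRNA genes with a site. Neither gene had a site in the growing list, whose lowest value was 0.0002 RPM, which is not a known limit of detection.

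The remaining mTOR-inactive sites were far weaker. VARS, the valyl enzyme, had a site of 0.0353 RPM, the single 5’UTR site of the set, but 7 genes listed its length and RPM. SHMT2, ASNS and PSPH had sites in the CDS with 0.0024, 0.0012 and 0.0009 RPM. SLC38A2 and DARS had 3’UTR sites with 0.0012 and 0.0004 RPM. Summed over the 50 genes, the listed sites came to 0.0896 RPM in growing cells and to 1106 RPM after PP242. Nearly all of the second sum is the 2 MTHFD2 sites of 701 and 373 RPM, so it describes 1 gene and not the set. The lists also differ as a whole, with a median of 0.0051 RPM for mRNA sites in growing and 0.0249 RPM in mTOR-inactive cells.

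None of the 9 genes that passed the mRNA test carried a listed LARP1 site in either condition. Of all genes tested in mRNA-seq, 10.2% carried one in growing and 11.2% in mTOR-inactive cells, so its absence from so few genes says little. The mRNA levels of the genes with the strong sites lay close between the conditions, at a log2 change of -0.06 for MTHFD2 and of 0.02 for YARS (99.9 and 99.4 RPKM in growing, 101 and 101 RPKM in mTOR-inactive libraries). MTHFD2 lies at chr2:74413299-74444692 on the plus strand and YARS at chr1:33240838-33283632 on the minus strand of GRCh37.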

How the data were processed

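After linker removal, the authors aligned all reads to a GRCh37 transcriptome with Bowtie, whose version is not stated. In mRNA-seq only perfect matches were kept, reads with several matches were divided evenly among them, and the authors deposited RPKM per transcript and library. Levels of isoforms, and of genes that share sequence, are therefore less certain. In PAR-CLIP, overlapping reads with a limited number of T-to-C mismatches were merged and smoothed, and at least 1 read with a conversion was required. The authors deposited each site as RPM. The paper also describes a threshold on RPM, and whether the deposited lists had passed it is not known. Counted once per gene and RPM value, the lists held 2216 sites in growing and 2509 in mTOR-inactive cells. The paper reports more sites in growing than in mTOR-inactive cells. The authors also gave RPM divided by the RPKM of the transcript, as a ratio, and a T-to-C score, which the methods do not describe. For most sites this deposited score is a fixed multiple of RPM (25.8 in the growing list, 28.3 in the mTOR-inactive list), and it is given as a percentage of that multiple.

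Of 39711 lines in the RPKM table, repeats were dropped, which left 38438 transcripts. Gene names are those of the table, and 10 transcripts without a name that RefSeq assigns to these genes were left out of the levels. Differences in log2(RPKM + 1) were fitted in limma 3.58.1 (R 4.3.3), with moderated variances that follow a trend, where the mean reached 1 RPKM. Tests were two-sided, p-values were adjusted by Benjamini-Hochberg, and 0.05 was the threshold. Because of the added 1, changes of low genes are understated. The p-values measure the spread between 2 libraries per condition. In a simulation of this comparison over 21014 transcripts, the fit called 100 of 100 transcripts shifted by 0.5 on the log2 scale. It called 95 of 100 shifted by 0.25, along with 10 unchanged ones. With no shift put in, 2 passed. Real transcripts may differ more in their spread than simulated ones. Recovery in the 2 libraries per condition may therefore be lower, and false calls more frequent, than these counts. Tables and figures were made with Python 3.11.15, numpy 2.4.6, pandas 2.3.3 and matplotlib 3.10.9. Gene positions are from GENCODE annotation of GRCh37.

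The genes and lists were chosen with earlier results of these data known. Named genes are those that passed the threshold, the 3 with the largest absolute change in each role, those with a site of at least 1 RPM, ATF4, and up to 3 further pathway genes per list that passed; others were named after their values were seen. Alternatives were other pseudocounts, filters, scalings and variance models, sums per gene, a replicate block, leaving out each library, and other ways of counting sites. Sequences of the LARP1 sites were not analysed here.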

Additional observations from a re-analysis of the deposited data

How the results depend on the processing

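None of the 9 genes of the set and 8 further genes that passed changed direction under the alternatives run. Of the 40 tested genes of the set that did not pass, 14 changed sign under at least 1 alternative, all with a log2 change of at most 0.0439 in size. With no filter on low RPKM, 120 of 38438 transcripts passed (2087 of 21014 with the filter), and the numbers of higher and lower genes fell to 0 in the set and to 0 among the further pathway genes; adjusted p was then 0.0511 for ATF4, 0.0707 for DDIT4, 0.0864 for DDIT3 and 0.0934 for CHAC1. In that limma fit 14 genes of the set and 12 further genes had an unadjusted p under 0.05, and the cause was not tested. A filter at 5 RPKM left 3 lower genes of 5 in the set, since CHAC1 and CEBPB were not tested, and a fit without a trend left 3, without SESN2 and SLC1A5. Leaving out 1 library gave 2 to 2 higher and 2 to 3 lower genes in the set (4 and 5 with all libraries), and 2 to 2 higher and 2 to 3 lower further genes (4 and 4), and cut all calls to between 863 and 1060. ATF4, DDIT3, CHAC1 and DDIT4 passed in every such fit. Other pseudocounts, scalings and sums per gene kept these counts within 1.5 times. With the replicate number as a block 4 genes of the set were higher and 6 lower, SLC38A2 being added (adjusted p = 0.0466), and 2135 transcripts passed; the numbers were not taken as pairing samples, because deviations of equal numbers correlated at 0.0401 over 2 pairs. Without a minimum RPM, 2 genes carried a LARP1 site in growing cells and 8 after PP242 (0 and 2 at 1 RPM). Normalized to RPKM, the summed site signal was 3.33 and 25070, on another scale than RPM, and nearly all of the second sum was again on MTHFD2. Read depth, not known for either assay, limits the weak sites.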

Other observations

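Outside the 50 genes, the growing list of LARP1 sites held strong sites on genes of the same pathways. SLC7A2, a cationic amino acid transporter, carried a 3’UTR site of 367 RPM, and EARS2, the mitochondrial glutamyl-tRNA synthetase, carried a 3’UTR site of 103 RPM. Neither gene had a site in the mTOR-inactive list. Under mTOR-inactive conditions ATF3 carried a 3’UTR site of 0.138 RPM and EIF2S1 one of 0.0027 RPM. These are values of 1 library per condition, and the genes were named after their values were seen.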
